A study of Mus musculus with 20 samples.

Results

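The proteins of the mitochondrial ribosome were followed at the level of their mRNA in mouse quadriceps, a thigh muscle. The members were all probes whose gene name in the scanner files begins with Mrpl or Mrps and a digit, which gave 106 probes on the array. Of these, 103 passed the requirement of a Cy5 signal well above background on 10 or more of the 20 arrays and were tested. They represent 76 genes, 47 of the large subunit (Mrpl) and 29 of the small subunit (Mrps), out of 15303 genes tested in all. The 3 probes that did not pass were further probes of Mrpl9, Mrpl21 and Mrps14, so no member gene was lost. The probe of highest signal represents each gene, and all 76 such probes were well above background on all 20 arrays.

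The mitochondrial ribosome translates the few proteins that the mitochondrial genome encodes, all of them subunits of the respiratory chain and ATP synthase. Its ribosomal RNAs come from the mitochondrial genome, while every one of its proteins is encoded in the nucleus, made in the cytosol and imported. About the core inherited from bacteria, the mammalian particle carries many proteins that bacteria lack. Skeletal muscle relies heavily on the oxidative phosphorylation that these proteins serve.

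The mice were C57BL/6J males, 6 weeks old, in 2 groups of 10. Their mothers had eaten a semisynthetic diet with 40% of energy from fat (mHFD) or 10% (mLFD) from 3 days before mating until the end of lactation. After weaning all offspring were caged singly on the low-fat diet, and all were killed after 2 h of fasting, so the maternal diet was the difference between the groups. The labels name no litters, and as many as 4 siblings may belong to 1 group, in which case the p-values are too small. Each value is the log2 ratio of the Cy5-labelled sample to a Cy3-labelled pool of all samples on the same array. Differences are mHFD minus mLFD on this log2 scale with the standard error (SE) of limma, a moderated linear model, and n = 10 per group.

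The arrays lay on 5 slides of 4, each with 2 arrays of either group. The mHFD samples were always at positions 1 and 3 and the mLFD samples at positions 2 and 4, so that an effect of odd against even positions and the maternal diet cannot be told apart. Where position is named as a covariate, it entered as a linear term over positions 1 to 4. That term is itself tied to the group and cannot remove an effect of odd against even positions. The sample channel detected 15506 to 23410 probes on an array. In its processed signals the scanner software had multiplied Cy5 by a scale factor of 1.15 to 6.10. The log ratios of the main fit were taken from the spot means, which do not carry this factor. The 10 skeletal muscle markers, among them Acta1, Ckm and Ttn, were measured on all 20 arrays, and their mean log ratio differed by 0.041 between the groups. The means of other marker lists differed by -0.155 for 10 slow-fibre genes, -0.414 for 8 of 9 adipocyte genes, -0.404 for 6 of 7 neutrophil and mast cell genes, -0.125 for 8 fibroblast and tendon genes, -0.0685 for 5 of 6 macrophage genes and -0.055 for 8 endothelial genes. The differences were 0.0107 for 3 of 6 lymphocyte genes, -0.0207 for 4 erythroid genes and -0.0421 for 4 of 5 satellite cell genes. With each gene centred on its own mean over the 20 arrays, the adipocyte mean ranged from -0.892 to 0.606 over mHFD arrays. Over mLFD arrays it ranged from -0.935 to 1.39. The part of other cell types in the results was not tested, and in whole muscle fewer cells of a type and less RNA per cell cannot be told apart.

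No mitochondrial ribosomal protein gene passed the adjusted threshold of p 0.05 in limma with Benjamini-Hochberg adjustment over all 19206 probes. Over all genes, 1 of 15303 passed it (0.00653%). At an unadjusted p under 0.05, 0 of the 76 members were higher in mHFD, where 3.93% of all genes were, and 4 were lower, where 3.29% were. When 1 array was left out the count of lower members was between 1 (without mLFD 06 or any of 6 others) and 7 (without mLFD 03, mLFD 07 or mHFD 10). Of the 76 members 40 had a difference below 0, or 52.6%, beside 49.6% of all genes, and the median difference was -0.0045 beside 0.0010 for all genes. No member had groups that did not overlap (0.00653% of all genes did). The split of signs moved with the scaling of the arrays. The share of members below 0 was 67.1% when arrays were only centred on their median (50.3% of all genes), 72.4% in the authors' deposited table (45.6% of all genes) and 40.8% for Cy5 by itself (50.7% of all genes). In Cy3, which holds the pool and so gives a background with no difference between the mice, it was 26.3% (42% of all genes).

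**Figure D1:**
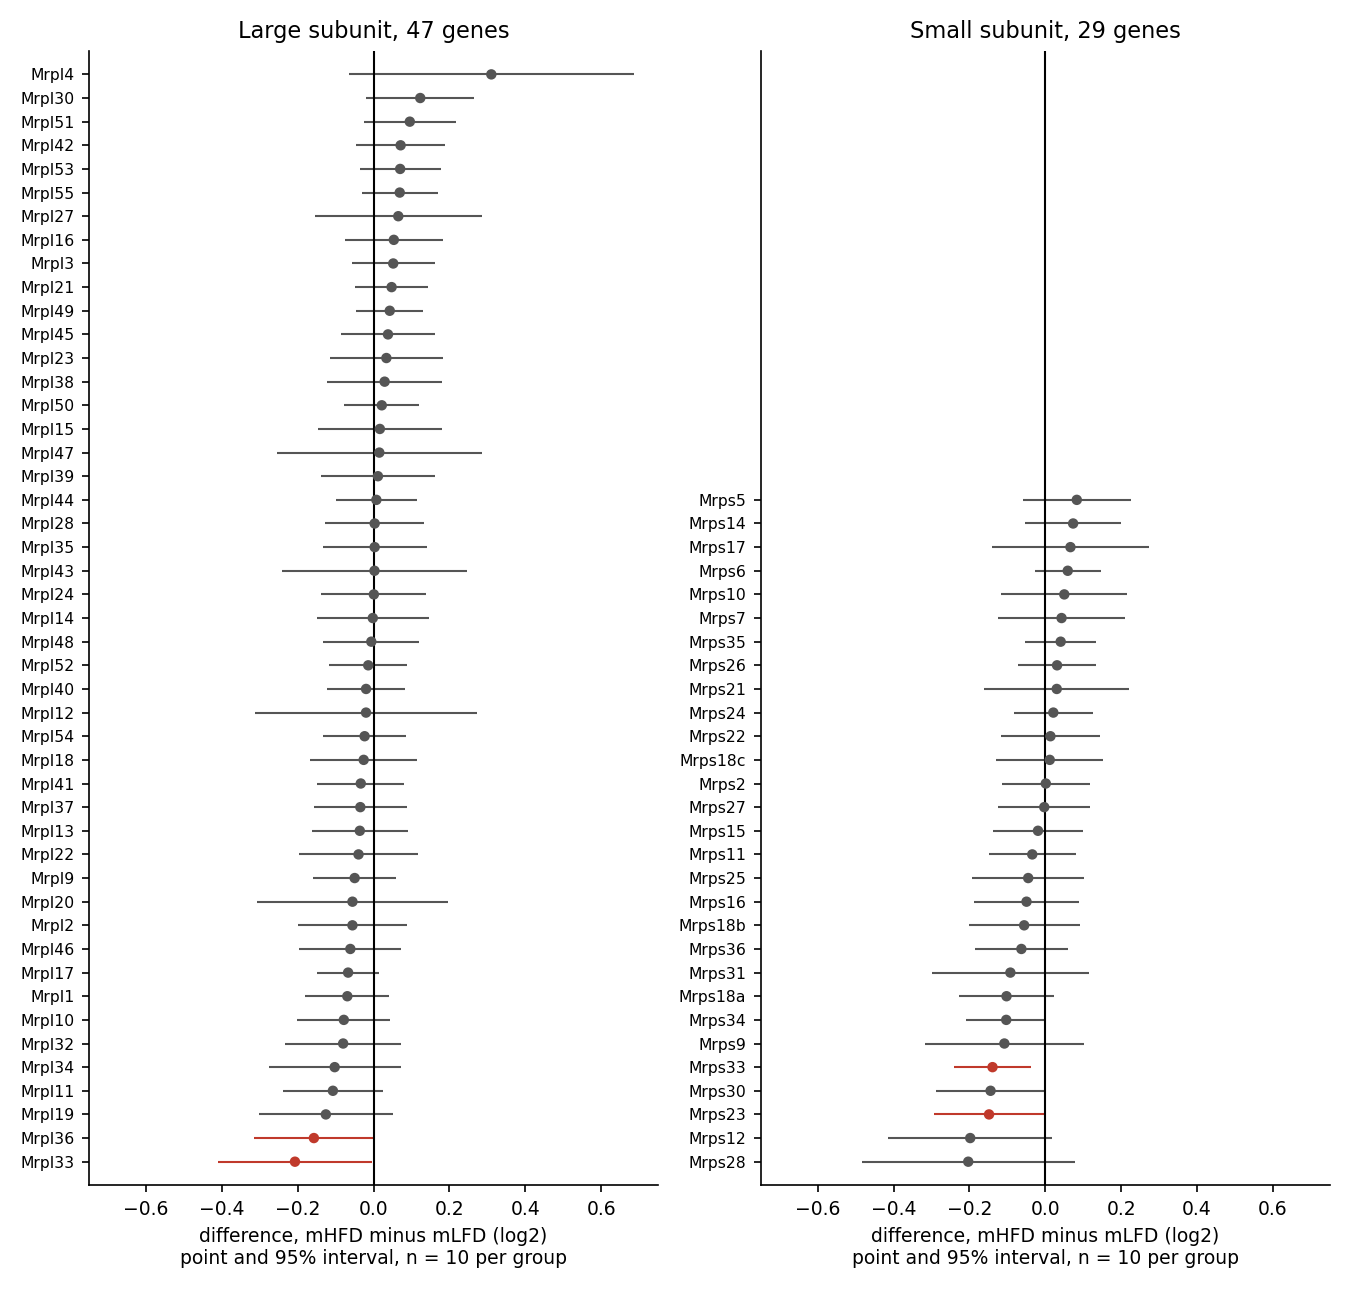
Difference between mHFD and mLFD on the log2 scale (horizontal axis) for each of 47 large subunit genes (left) and 29 small subunit genes (right), ordered by size within each panel. Points are limma estimates and lines their 95% intervals with n = 10 per group. The 4 genes in red had an unadjusted p under 0.05, and none passed the adjusted threshold.

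Each gene was first centred on its own mean over all arrays, so these means do not give the level against the pool. As a mean over the 76 genes, the centred log ratio was -0.0084 ± 0.054 (SD, n = 10) in mHFD. In mLFD it was 0.0083 ± 0.067 (SD, n = 10). The mHFD arrays ran from -0.112 to 0.0825 with a median of -0.0102, and the mLFD arrays from -0.1204 to 0.0719 with a median of 0.0388. The groups overlapped almost over their full range, and the difference of -0.0167 (0.988-fold) was smaller than either SD. No p-value is given for these means, because the genes were chosen with earlier results of the same arrays known.

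The lowest arrays came from both groups, mLFD 07 and mHFD 03, the latter at -0.112. The member mean also moved with the slide. It averaged 0.0422 on slide 1 and 0.0504 on slide 5, where the software's Cy5 factor was 1.15 to 1.36 and 1.75 to 2.49. It averaged -0.0509, -0.0149 and -0.0271 on slides 2, 3 and 4, where the factors were 3.94 to 6.10, 3.25 to 5.67 and 2.40 to 4.68. The factor averaged 3.37 over mHFD and 2.83 over mLFD arrays, and its part in the member means was not tested beyond a fit with it as a covariate, in which the difference was -0.0053. Within slides 1 to 5 the difference between the groups was -0.0092, -0.0196, -0.0214, -0.0039 and -0.0295.

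The subunits differed little. Centred in the same way, the mean of the 47 large subunit genes was -0.0032 ± 0.049 (SD, n = 10) in mHFD. In mLFD it was 0.0031 ± 0.065 (SD, n = 10), which makes the difference -0.0063. The 29 small subunit genes averaged -0.0169 ± 0.067 (SD, n = 10) in mHFD. Their mLFD mean was 0.0168 ± 0.075 (SD, n = 10), which makes the difference -0.0337. The small subunit mean was lower in mHFD on 5 of 5 slides and the large subunit mean on 3 of 5. As a mean of the fitted gene differences, which is -0.0340 for the small subunit, it was 0.0037 with position as a covariate, and in Cy5 by itself it was 0.0079. Leaving out 1 array put it between -0.0487 (without mLFD 07) and -0.0211 (without mHFD 03), and the large subunit difference between -0.0207 and 0.0043 for the same arrays; the latter was also above 0 without mLFD 08 (0.0013) or mLFD 09 (0.0024). The median difference was -0.0022 over large subunit genes, 24 of 47 below 0, and -0.019 over small subunit genes, 16 of 29 below 0.

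The subunits were then taken against each other on each array, which removes a shift common to both. The large minus the small subunit mean of the centred values ran over mHFD arrays from -0.0223 to 0.0883 with a median of 0.0075. Over mLFD arrays it ran from -0.0613 to 0.0289 with a median of -0.0140. Of the mHFD arrays 8 lay above the mLFD median, but the ranges overlapped. The group means were 0.0137 ± 0.032 and -0.0137 ± 0.030 (SD, n = 10 each), a difference of 0.0274 that was 0.0227, 0.0200, 0.0640, 0.0209 and 0.0095 within slides 1 to 5. That difference was 0.0078 with Agilent's own log ratio and 0.0151 with the position within the slide as a covariate. Genes were also assigned by their place in the mammalian ribosome. Mrps30 and Mrps18a, which sit in the large subunit despite their names, were counted there, and Mrps36 was left out. Ribosomal proteins that carry other names, Gadd45gip1 and Ptcd3 among them, were added to their subunits. The difference was then 0.0142. With the subunits by name, it was -0.0032 in Cy5 by itself, and the pool in Cy3 gave a background of -0.0109.

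The genes were also divided by a list of proteins counted as shared with bacteria, and how single proteins were assigned was not tested. The 15 small subunit genes on it had 10 above 0 and 5 below (33.3%), with a median difference of 0.021. The other 14 small subunit genes had 3 above and 11 below (78.6%, beside 49.6% of all genes), with a median of -0.078. These 14 are a mixed class. Mrps18a and Mrps18b, paralogs of bacterial S18, were counted in it, while Mrps18c was counted as shared. Mrps30, which sits in the large subunit, and Mrps36 were in it too. Mrps28 was also counted in it, with the lowest difference of the 14 (-0.20). Mrps18a, Mrps18b, Mrps30 and Mrps36 were each below 0. Both genes of the small subunit with an unadjusted p under 0.05 belong to these 14. Of all genes 3.29% were lower at that threshold. Among large subunit genes the 30 counted as shared had 13 above 0 and 17 below (median -0.023). The 17 others had 10 above and 7 below (median 0.0073). The difference between these classes was not tested. Of 5 genes for the stalk and the factor-binding centre of the large subunit 1 was above 0 and 4 below (median -0.024), and of 7 genes for the rim of the exit tunnel, where new chains leave the ribosome, 5 were above and 2 below (median 0.0073).

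Mrps33, a small subunit protein without a bacterial counterpart, had the smallest p of the members. Its log ratio in mHFD was at lowest -0.18, at the median -0.06 and at highest 0.13, and in mLFD -0.07, 0.07 and 0.26. Of the mHFD arrays 8 lay below the mLFD median, and the ranges overlapped. The difference was -0.14 (SE 0.05, unadjusted p = 0.00928, adjusted p = 0.689 in limma), or 1.10-fold lower with means of -0.06 ± 0.11 and 0.08 ± 0.10 (SD, n = 10 each). It was below 0 within 5 of 5 slides, from -0.27 to -0.0016. A second probe for Mrps33 gave 0.06 (SE 0.06, unadjusted p = 0.343), and the 2 probes did not move together over the arrays (r = -0.029 after removing the group means, as a description). With the mean of both probes the difference was -0.042, and with position as a covariate it was -0.091. In Cy5 by itself the brighter probe differed by -0.041, and the pool in Cy3 gave a background of 0.071.

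Mrps23, likewise specific to the mitochondrial particle, ran from -0.31 through a median of -0.17 to 0.10 in mHFD and from -0.23 through -0.01 to 0.40 in mLFD. The highest mLFD array, mLFD 06, stood well above the next at 0.0924. The difference was -0.15 (SE 0.07, unadjusted p = 0.0447, adjusted p = 0.689 in limma), and -0.10 without mLFD 06. It was -0.079 with position as a covariate and -0.070 with Agilent's own log ratio. In Cy5 by itself it was -0.068. A second probe gave -0.0055 (SE 0.05).

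Mrpl33, a short protein of the bacterial core of the large subunit, had the largest difference below 0 of any member. Its values in mHFD ran from -0.54 through a median of -0.30 to -0.10, and in mLFD from -0.58 through -0.13 to 0.45. All but 1 of the mHFD arrays lay below the mLFD median, but mLFD 07 was the lowest array of either group. The difference was -0.21 (SE 0.10, unadjusted p = 0.0466, adjusted p = 0.689 in limma). It was -0.14 without mLFD 04, the highest mLFD array, and -0.10 with either Agilent's log ratio or position as a covariate. In Cy5 by itself it was -0.11.

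Mrpl36, the counterpart of the smallest protein of the bacterial ribosome, ran from -0.49 through -0.19 to -0.0069 in mHFD and from -0.29 through -0.02 to 0.37 in mLFD. The array mLFD 06 was again the highest, and the next was at 0.0574. The difference was -0.16 (SE 0.08, unadjusted p = 0.0499, adjusted p = 0.689 in limma), with a 95% interval from -0.31 to -5.7e-05. In the Cy3 channel, where every array carried the same pool, the Mrpl36 probe differed by 0.13 (unadjusted p = 0.0110 in limma), and in Cy5 alone by 0.016. With position as a covariate the difference was -0.019.

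**Figure D2:**
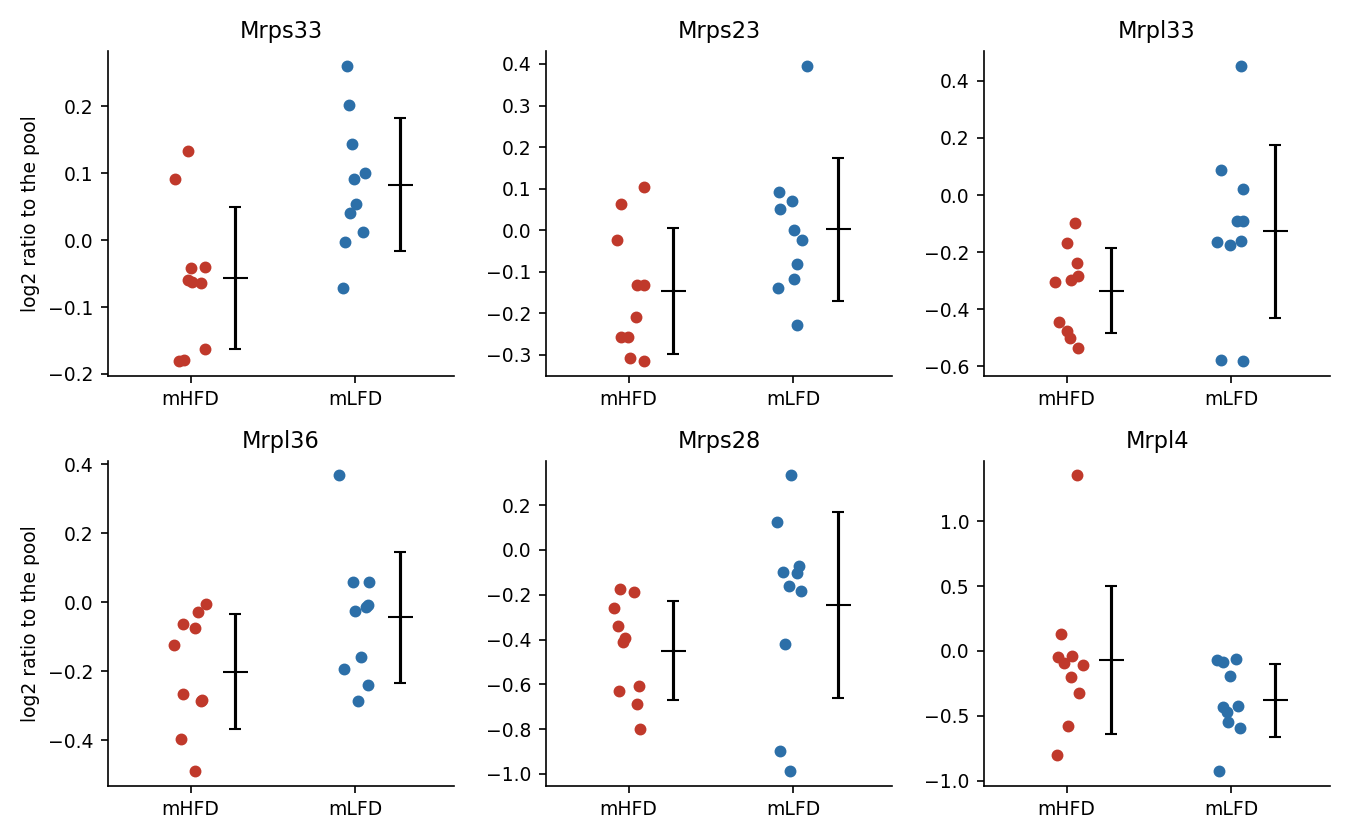
Log2 ratio to the pool (vertical axis) on each of 10 mHFD and 10 mLFD arrays for 6 members, with the mean and SD beside the points. Both groups overlap in every panel. A single high array stands apart in mLFD for Mrps23 and Mrpl36 and in mHFD for Mrpl4.

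The same pool on all arrays gives a background for such differences. Scaled by each array's 75th percentile, the Cy3 signal of 5 members was higher on mHFD arrays at an unadjusted p under 0.05 (4.40% of all genes were) and that of 2 was lower (3.80%). Cy5 by itself, on the same scale, gave 0 higher (2.88%) and 1 lower (4.25%), Mrpl19, a large subunit protein of the bacterial core. Mrpl19 differed by -0.34 in Cy5 and by -0.21 in Cy3, and by -0.13 (SE 0.09) as a log ratio, or -0.073 without mLFD 04. In the authors' deposited table, 0 members were higher and 0 lower at that threshold in the same limma fit.

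The other members named by rule did not reach an unadjusted p of 0.05. On the lower side of the small subunit, Mrps30 differed by -0.14 (SE 0.07), Mrps34 by -0.10 (SE 0.05) and Mrps12, a protein next to the decoding site, by -0.20 (SE 0.10). In Cy5 by itself they differed by 0.021, -0.074 and -0.086, and the pool in Cy3 gave a background of 0.075 for Mrps30. In the large subunit, Mrpl17 differed by -0.07 (SE 0.04) and Mrpl11, of the factor-binding stalk base, by -0.11 (SE 0.06). Their mHFD and mLFD arrays overlapped, and 7 or 8 of 10 mHFD arrays of each lay below the mLFD median.

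On the higher side, Mrpl4, a protein that lines the exit tunnel in bacteria, had the largest difference of all members and among the widest spreads. It ran from -0.81 through a median of -0.10 to 1.35 in mHFD and from -0.93 through -0.43 to -0.06 in mLFD, and the array mHFD 05 at 1.35 stood far above the next at 0.133. The difference was 0.31 (SE 0.18, unadjusted p = 0.101 in limma), and 0.15 without mHFD 05. A dimmer probe of the gene gave -0.04 (SE 0.06). Mrpl30 differed by 0.12 (SE 0.07), Mrpl51 by 0.10 (SE 0.06), Mrpl53 by 0.07 (SE 0.05, 0.0446 without mHFD 08) and Mrpl55 by 0.07 (SE 0.05, 0.0444 without mHFD 03). In the small subunit Mrps5, Mrps14, Mrps17, Mrps6 and Mrps35 differed by 0.08, 0.07, 0.07, 0.06 and 0.04, each with an unadjusted p of 0.175 or more. Some of these moved with single arrays: Mrps17 was at -0.00067 and Mrps5 at 0.040 without mHFD 06, Mrps14 at 0.042 without mHFD 07 and Mrps35 at 0.017 without mHFD 08.

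Members with roles beyond the subunit they are named for were looked at separately. Mrpl12, which is also known to bind the mitochondrial RNA polymerase, differed by -0.02 (SE 0.14), with arrays from -0.77 to 0.65 in mHFD. Leaving out 1 array put it between -0.12 (without mHFD 10) and 0.036 (without mHFD 08), and turned its sign for 6 arrays (mHFD 03, mHFD 05, mHFD 07, mHFD 08, mLFD 06 and mLFD 09). Mrps36, which has since been described as a subunit of the 2-oxoglutarate dehydrogenase complex, differed by -0.06 (SE 0.06), and by -0.027 without mLFD 06. The 3 paralogs of bacterial S18 occupy different sites, and they differed by -0.10 (SE 0.06) for Mrps18a, -0.06 (SE 0.07) for Mrps18b and 0.01 (SE 0.07) for Mrps18c. Mrps18b was at -0.023 without mHFD 05, and Mrps18c ranged from -0.019 (without mHFD 08) to 0.036 (without mHFD 03) when 1 array was left out. Mrps28 spread most after Mrpl4 and Mrpl12, from -0.80 through -0.40 to -0.17 in mHFD and from -0.99 through -0.13 to 0.33 in mLFD. All 10 mHFD values of Mrps28 lay below the mLFD median, but mLFD 03 was the lowest array, and the difference was -0.20 (SE 0.14, unadjusted p = 0.147).

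How far a difference held over a gene's probes could be read for the 24 members with several tested probes. In 17 of them the probes had differences of opposite sign. For each gene the lowest correlation between a pair of its probes over the arrays was taken, after removing the group means. Its median over the 24 genes was 0.064. It was under 0.3 in 18 genes and above 0.7 in 2, Mrpl23 (0.87) and Mrpl10 (0.72). The 2 Mrpl23 probes are offset by 5 bases and so overlap over most of their length. They gave 0.03 and -0.07, each within 1 SE of 0. The first 30 of the 60 bases of each probe are shown for 3 genes, chosen after their values were seen because their probes had differences of opposite sign, with capitals marking a run that 2 probes share.
Mrps33, difference -0.14: agtgcatctcattatcttcccgagtattag
Mrps33, difference 0.06: gtctactgactcaaagtccatgaaagtgag
Mrpl30, difference 0.12: cacagatgcacttactaaggaaaccattct
Mrpl30, difference -0.09: atcggtgaatgcaaagctgaaagtggttaa
Mrps18b, difference -0.06: ggtgtGTCCCTGATTTAAACCTCCTGGCTC
Mrps18b, difference -0.11: GTCCCTGATTTAAACCTCCTGGCTCAGCTT
Mrps18b, difference 0.13: acagcggacccgaaagacatgtattcgtaa
The Mrps33 probes lie at chr6:39752333-39752392 and chr6:39752512-39755513 in build mm9, minus strand; the second covers a genomic span of 3002 bases and so crosses an intron. The Mrpl30 probes lie at chr1:37955128-37955187 and chr1:37954938-37954997, plus strand. They differed by 0.12 (SE 0.07) and -0.09 (SE 0.06), with a correlation of 0.22 over the arrays. The first 2 probes of Mrps18b share a run of 55 bases, moved together at r = 0.58, and had residual SDs of 0.163 and 0.385. The third Mrps18b probe, which crosses an intron upstream, gave 0.13 (SE 0.06, unadjusted p = 0.0427) against -0.06 and -0.11. For Mrpl47, 4 probes gave 0.02, 0.0030, -0.04 and 0.12, and the last (unadjusted p = 0.0440) was well above background on 14 of 20 arrays.

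**Figure D3:**
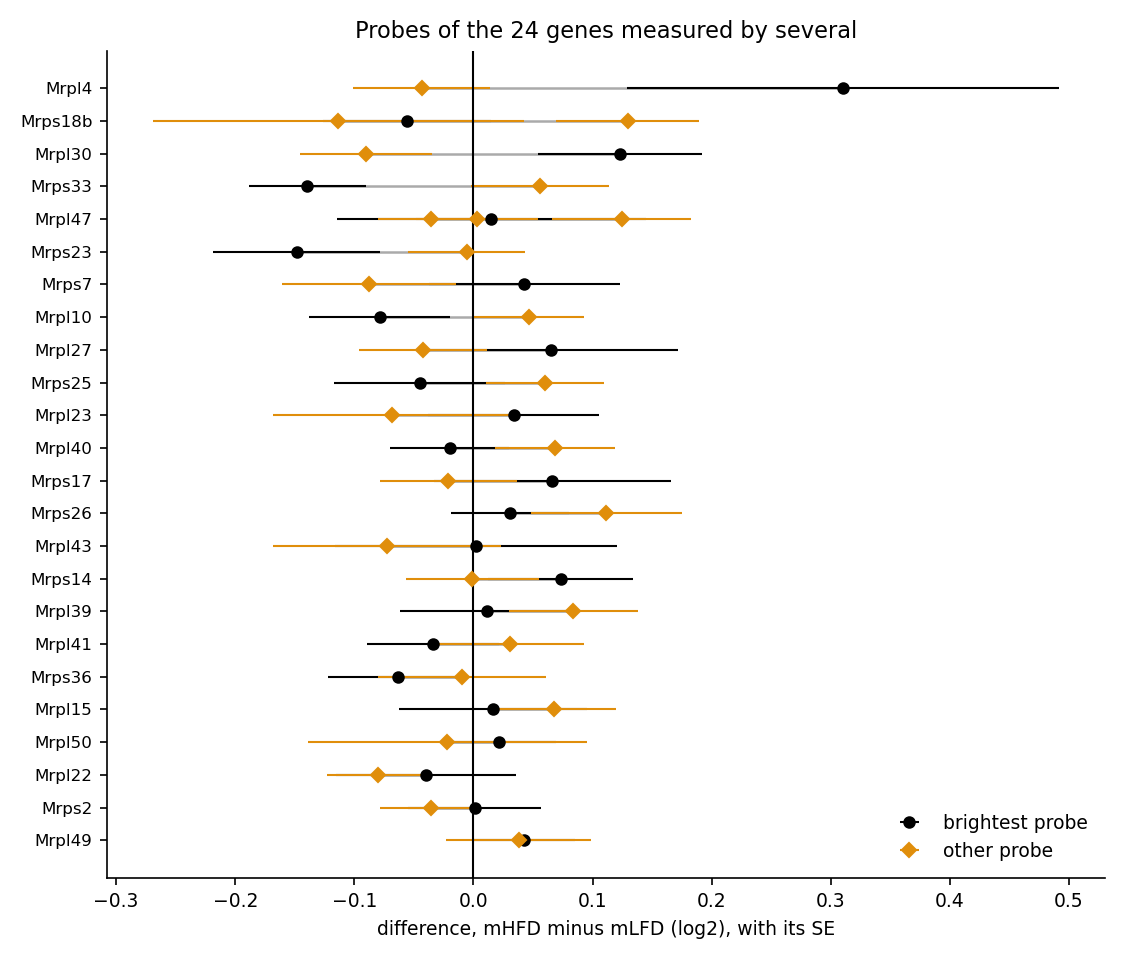
Difference between mHFD and mLFD on the log2 scale with its SE for each tested probe of the 24 members that have several, ordered by the distance between probes. Black circles are the brightest probe of a gene and orange diamonds the others. In 17 genes the probes lie on both sides of 0.

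Over the arrays, the members moved together more than genes at large, though loosely. With the group means removed, the median correlation between 2 members was 0.099, beside 0.00064 over all pairs of tested genes, and 12.2% of member pairs exceeded 0.5, beside 3.93%. It was 0.081 within the large subunit, 0.121 within the small subunit and 0.104 between them. These are descriptions over 20 arrays that share slides, scaling and the pool, and the first principal component of the members held 26.2% of their variance. The median residual SD was 0.146 for members and 0.139 for all genes.

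Each member was also set against the mean of the others. The median correlation was 0.335, 15 of 76 members were below 0, and 4 exceeded 0.7, all of the large subunit. They were Mrpl15 (0.815), Mrpl34 (0.780), Mrpl32 (0.734) and Mrpl46 (0.710). Mrpl30 was lowest (-0.243). The genes outside the set that followed the member mean most closely over the 20 arrays were Nop10 (r = 0.878), a core protein of the particles that pseudouridylate ribosomal RNA, Hnrnpa2b1 (0.858), Tmem192 (0.849), Immt (0.819), the central protein of mitochondrial cristae junctions, Thoc7 (0.815), Tomm5 (0.802), a small subunit of the outer membrane import pore, the transcript named NAP114223-1 (0.8) and Boll (0.799). They were picked as the highest among genes outside the set whose probe was well above background on all 20 arrays. Of these followers, Tmem192 differed between the groups by -0.19 (SE 0.07, unadjusted p = 0.0143, adjusted p = 0.689 in limma).

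Single arrays weighed on many members at once. The array mLFD 06 held the highest mLFD value of 20 members and the lowest of 15, so that it was an extreme for 35 of 76. It was the highest mLFD array for Mrps23, Mrps30, Mrps34, Mrps12, Mrps28 and Mrpl36 and the lowest for Mrpl4, Mrpl30, Mrpl51, Mrpl53, Mrps5 and Mrps14. Without it 1 member, in place of 4, had an unadjusted p under 0.05 on the lower side.

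Promoters were compared because the nuclear factors NRF1, the ETS factors (GABPA among them) and YY1 are known regulators of genes for mitochondrial proteins. RefSeq promoters of assembly GRCm38.p6, from 250 bases before to 50 after the start, were matched for 67 of the 76 members. The motifs searched on both strands were GCGCATGCG for NRF1, CCGGAAGT for ETS factors and AAGATGGCG for YY1, and in member promoters no match of 1 motif overlapped a match of another. At least 1 of them was found in 38.8% of member genes, beside 14.8% of 9877 genes tested on the arrays and 7.48% of all 27025 genes of the table. For NRF1 the shares were 10.4%, 3.81% and 1.95%, for ETS 17.9%, 8.49% and 4.31%, and for YY1 11.9%, 3.45% and 1.64%. Member promoters had a median GC content of 58.3% and 21 CpG sites, beside 60% and 19 in tested genes and 52.7% and 7 in all. Large subunit genes held any motif in 43.9% and small subunit genes in 30.8%. A match is a description of letters and not a bound site. The 250 bases before the start are shown for Mrpl32, which followed the mean of the other members and holds NRF1 matches, and for Mrpl36, one of the 4 members at an unadjusted p under 0.05, which holds a YY1 match. Capitals mark the matches.
Mrpl32, chr13:14613038-14613287, minus strand: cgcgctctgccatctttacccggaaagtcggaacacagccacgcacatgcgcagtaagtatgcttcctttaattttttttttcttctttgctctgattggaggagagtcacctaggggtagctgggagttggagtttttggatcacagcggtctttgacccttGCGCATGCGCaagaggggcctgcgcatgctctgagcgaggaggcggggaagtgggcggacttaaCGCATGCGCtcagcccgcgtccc
Mrpl36, chr13:73330759-73331008, plus strand: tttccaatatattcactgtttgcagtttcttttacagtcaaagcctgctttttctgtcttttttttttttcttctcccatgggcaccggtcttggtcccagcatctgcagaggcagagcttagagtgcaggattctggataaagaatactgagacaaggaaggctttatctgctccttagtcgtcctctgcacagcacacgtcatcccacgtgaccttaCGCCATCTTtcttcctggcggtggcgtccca
The NRF1 motif is nearly its own reverse complement, so the first run of capitals in Mrpl32 matches on both strands, 87 and 86 bases before the start. Another match lies 23 bases before the start, and the YY1 match of Mrpl36 lies 31 bases before it.

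The rest of the mitochondrial translation apparatus was read from lists of genes. No gene of these lists passed the adjusted threshold in limma, and the few with an unadjusted p under 0.05 are named. Of 7 ribosomal proteins that carry other names 2 were above 0 and 5 below, with a median of -0.035; Gadd45gip1, at the exit of the large subunit, differed by -0.11 (SE 0.06) and Ptcd3, at the mRNA channel of the small subunit, by -0.05 (SE 0.05). Of 17 translation factors 9 were above and 8 below (median 0.00069).

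Among the translation factors, Oxa1l, which inserts newly made proteins into the inner membrane, ran from -1.001 through -0.70 to -0.16 in mHFD and from -0.90 through -0.06 to 0.22 in mLFD. All 10 mHFD arrays lay below the mLFD median, while 1 mLFD array, mLFD 03, was almost as low as the lowest of them. The difference was -0.34 (SE 0.14, unadjusted p = 0.0234, adjusted p = 0.689 in limma). It was -0.17 over the mean of the gene's probes. Mtrf1, a peptide chain release factor, differed by 0.07 (SE 0.05).

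Of 20 mitochondrial aminoacyl-tRNA synthetases 18 were measured, 7 above and 11 below 0 (median -0.014). Yars2, which charges the tyrosine tRNA, ran from -0.13 through -0.01 to 0.22 in mHFD and from -0.44 through -0.08 to 0.05 in mLFD, and differed by 0.14 (SE 0.06, unadjusted p = 0.0251, adjusted p = 0.689 in limma). Wars2, for tryptophan, differed by 0.08 (SE 0.04). Of 26 measured genes of ribosome assembly and ribosomal RNA modification 18 were above and 8 below (median 0.017). Tfb1m, which dimethylates the small ribosomal RNA, ran from -0.30 through -0.05 to 0.20 in mHFD and from -0.22 through 0.12 to 0.69 in mLFD, and differed by -0.23 (SE 0.10, unadjusted p = 0.0373, adjusted p = 0.689 in limma). Mrm3, a methyltransferase of the large ribosomal RNA, differed by 0.10 (SE 0.05). Of 15 genes of mitochondrial transcription and DNA upkeep 7 were above and 8 below (median -0.0060), with Top1mt at 0.06 (SE 0.04) and Elac2, which trims tRNA ends, at -0.05 (SE 0.04).

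This apparatus translates the 13 protein-coding genes of the mitochondrial genome, whose probes were all well above background on 20 arrays. Of these 11 were above 0 and 2 below, with a median difference of 0.037, and none had an unadjusted p under 0.05. ND5 had the largest difference, 0.17 (SE 0.11; 0.099 without mHFD 05), with arrays from -0.27 to 0.75 in mHFD and from -0.35 to 0.31 in mLFD. The ND3 probe differed by 0.11 (SE 0.09; 0.063 without mHFD 05), and its coordinates in the files are on chromosome 1, not on the mitochondrial genome, and which of them it reads was not tested. The ribosomal RNAs of the mitochondrion were not analysed here.

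Outside the mitochondrion, 53 of 85 cytosolic ribosomal protein genes were above 0 and 32 below (median 0.018), and 6 were higher and 1 lower at an unadjusted p under 0.05, where 3.93% and 3.29% of all genes were. Of 37 complex I subunits, most of them nuclear partners of the proteins that mitochondrial ribosomes make, 17 were above and 20 below (median -0.012), and 0 had an unadjusted p under 0.05. The members lay between these lists, with a median of -0.0045.

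**Figure D4:**
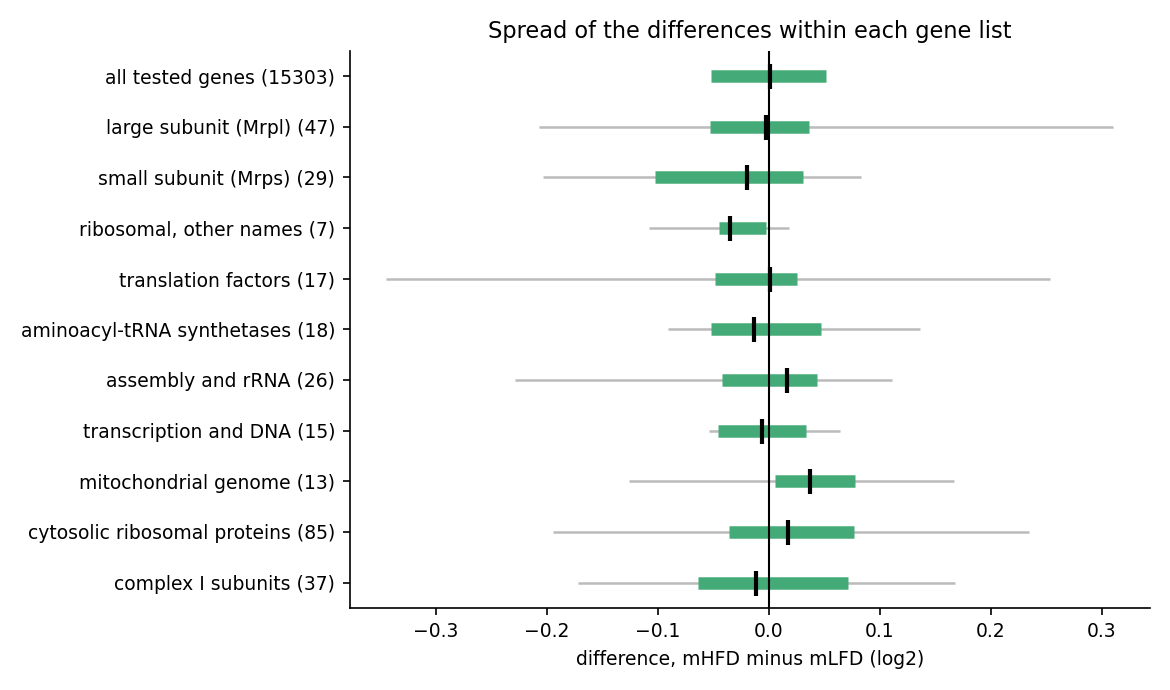
Differences between mHFD and mLFD on the log2 scale (horizontal axis) within each list of genes, with the number tested in brackets. Black ticks are medians, green bars the range from the lower to the upper quartile and grey lines the full range, which is not drawn for all tested genes. The medians lie between -0.035 and 0.037.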

How the data were processed

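Agilent 2-colour arrays of 20 quadriceps samples were read by the authors with Feature Extraction 10.7.3.1, per the submitters' processing notes and the file headers, which give build mm9. The deposited scanner files hold intensity values for both dyes, flags and a log10 ratio. A further table from the authors, used as an alternative, gives log2 values of 19377 spots. Its scale and background treatment are not stated, and every column has a median of 7.54.

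Spot means were corrected for background (normexp, offset 50) and normalized by loess within arrays. The 1377 control spots and outlier spots were left out, and 2 of 1520 member values were missing. Probes whose Cy5 signal was well above background on 10 or more arrays were fitted with limma 3.58.1 in R 4.3.3. Tests were two-sided, with Benjamini-Hochberg adjustment over 19206 probes. Only the limma fit with its adjustment was tried on simulated data, with noise independent between probes and arrays, and the steps before it were not. The median SE was 0.0609. The number of arrays limits the precision. Names other than those of the members were updated through RefSeq transcripts, which matched 27234 probes.

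Named genes were every member past the threshold, the 5 of smallest p per subunit and direction, the 3 of largest residual SD, 6 members with known further roles, the 2 of smallest p per list, members with probes of opposite sign and an unadjusted p under 0.05, and the 8 closest followers. Members and lists were chosen with earlier results of these data known. Of 10 same-numbered pairs, 8 correlated above 0.1 (-0.0073 to 0.358), and 7 of 20 samples correlated best with the sample of their own number. Same-numbered samples also lay side by side on a slide, and what they share was not tested. The main fit did not pair the samples. With the replicate number as a block, 8 members in place of 4 were lower at an unadjusted p under 0.05 in limma.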

Additional observations from a re-analysis of the deposited data

Results flagged for a closer look

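Within groups of 10 arrays, 1 array stood apart by Dixon's criterion in 6 of 101 pairs of result and group. Chance alone flags about 1 in 20, or 5.05. Mrpl4 in mHFD 05 was at 1.35 with the next array at 0.133, a gap of 0.565 of the group's range. Mrps17 in mHFD 06 was at 0.583 with the next at 0.146 (gap 0.486). The mean of the large minus the small subunit in mHFD 05 was 0.0883 with the next at 0.0353 (gap 0.479). The array mLFD 06 stood apart 3 times. It was high for Mrps23 at 0.396 against 0.0924 (gap 0.486) and for Mrpl36 at 0.367 against 0.0574 (gap 0.473), and low for Mrm3 at -0.389 against -0.141 (gap 0.603).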

How the results depend on the processing

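Under 43 other settings, of which 20 left out 1 array, 0 members passed the adjusted threshold, and the count of members below 0 kept within 1.5 times of 40 except in Cy3 alone (20). The number of members lower at an unadjusted p under 0.05, which is 4, was 1 with a normexp offset of 1, Agilent's log ratio, scaling between arrays, Cy5 alone and the Cy5 scale factor as a covariate (an alternative chosen after seeing the data). It was 0 with median centring, the authors' deposited table, position as a covariate and without slide 3, 2 in Cy3 alone and without slide 4, and 8 with the replicate block. The number higher, which is 0, was 1 with scaling between arrays, the replicate block and without slide 4, and 5 in Cy3 alone. Leaving out 1 array gave 1 to 7 lower and 0 to 1 higher; the count was 7 without mLFD 03, mLFD 07 or mHFD 10, 2 without mHFD 01, mHFD 04 or mLFD 09, and 1 without mHFD 03, mHFD 05, mHFD 07, mLFD 02, mLFD 04, mLFD 06 or mLFD 10. It was 1 on the higher side without mHFD 02, mHFD 04, mHFD 08, mLFD 03 or mLFD 08. As a hint from the data on the replicate block, 7 of 20 samples correlated best with the sample of their own number.

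Cy3 alone holds the pool and measures no mouse, so its values are a background and not estimates of the difference. Without it, the mean difference of all members lay between -0.0444 (the authors' table) and 0.0130 (position as a covariate) over the settings that kept all arrays or left out a slide, and between -0.0314 (without mLFD 07) and -0.0054 (without mHFD 03) when 1 array was left out. The large minus small difference was -0.0032 in Cy5 alone, beside a background of -0.0109 in Cy3 alone, and 0.0194 to 0.0325 without 1 array. Of the genes at an unadjusted p under 0.05, Mrpl36 had a difference of opposite sign in Cy5 alone (0.016), and the cause was not tested. The background in Cy3 alone was 0.13 for Mrpl36, 0.071 for Mrps33, 0.0048 for Mrps23 and 0.066 for Tfb1m. Of the 27 named members 9 changed sign under at least 1 of the 42 settings that measure the samples. Signal over background limits the dim probes, and the median SE was 0.0609.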
